A study of Mus musculus with 12 samples.

Results

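The genes described here encode transferases of phase II metabolism, the conjugation step that follows oxidation. They were picked by matching gene symbols: 20 UDP-glucuronosyltransferases (Ugt1a, Ugt2a, Ugt2b and Ugt3a), 20 glutathione S-transferases (Gsta, Gstk, Gstm, Gsto, Gstp and Gstt) and 18 sulfotransferases (Sult1 to Sult6), which makes 58 of the 24062 genes counted.

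RNA was sequenced from liver and gastrocnemius, a calf muscle, of 6 female C57BL/6N mice on chow. In 3 animals (5, 7 and 12, aged 9.0, 7.4 and 8.6 weeks) both copies of Mars2 carried R135W. Mars2 encodes the mitochondrial methionyl-tRNA synthetase, and R135W is a missense change that these counts do not read, so the genotypes are those of the labels. The other 3 (6, 8 and 9, aged 9.0, 9.0 and 7.4 weeks) were wild type (WT). The 4 groups of 3 libraries are R135W liver, WT liver, R135W gastrocnemius and WT gastrocnemius, and each animal gave both tissues. The series is titled for a type I interferon response, and the comparisons here ask how the conjugation genes stood in each tissue and genotype.

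Conjugation adds a polar group to a drug, hormone, bile pigment or reactive electrophile so that it can leave in bile or urine. UDP-glucuronosyltransferases sit in the endoplasmic reticulum and use UDP-sugars; glutathione S-transferases join glutathione to electrophiles; sulfotransferases use PAPS as the sulfate donor. Hepatocytes carry most of this activity, and several genes of these families differ between female and male mouse liver.

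Total counts ran from 21513860 to 30460237 in R135W liver, from 20751583 to 26275128 in WT liver, from 23895670 to 28480863 in R135W gastrocnemius and from 23992591 to 28669346 in WT gastrocnemius. Libraries of a group differed by more than counting error, with a chi-squared per degree of freedom of 41.7 to 118 in liver and 8.07 to 17.8 in gastrocnemius. The tissues matched their labels: 15 hepatocyte markers summed to 107000 to 115000 CPM (counts divided by TMM-scaled library size) in R135W liver and 126000 to 128000 CPM in WT liver, while 13 muscle fibre markers summed to at most 2.19 CPM in any liver library, with Myh2 and Myh7 at 0. Of 12 interferon-stimulated genes, 12 were called higher in R135W liver than in WT liver (edgeR, adjusted p under 0.05). In R135W gastrocnemius 5 of the 11 tested were called higher by that rule. All 11 were higher there at an unadjusted p under 0.05 in edgeR, with a median log2 fold change of 1.48. Of 16 macrophage markers, 12 were called higher in R135W liver, where the 16 summed to 1150 to 1210 CPM against 503 to 727 CPM in WT liver. The gastrocnemius library of R135W animal 12 held more liver transcripts than the others: its hepatocyte markers summed to 69 CPM, against 20.7 and 22.3 CPM in the other R135W muscles and 17.4 to 37.2 CPM in WT muscles. In bulk tissue, fewer cells of a type and less RNA per cell cannot be told apart.

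Most members were liver genes. Levels are given as FPKM, fragment counts divided by exon length and by library size, with library sizes scaled by TMM, so that genes of different length can be compared. In liver, 47 members had a mean level of at least 1 FPKM, 39 of at least 10 FPKM and 21 of at least 100 FPKM. Each of these liver counts holds the Ugt1a locus 8 times, since its 8 genes share most of their exon bases. In gastrocnemius the counts were 15, 8 and 1. In muscle 12 members had no count in any of 6 libraries and 33 had at most 10 counts in each library, whereas in liver Sult1c1 alone had none and 9 members had at most 10 counts in each. Between WT liver and WT gastrocnemius, 43 of the 47 members tested were higher in liver and 2 were lower (edgeR quasi-likelihood test, Benjamini-Hochberg adjusted p under 0.05 and at least 2-fold); over all 15414 genes tested, 28.7% were higher and 27.6% lower by the same rule.

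**Figure D1:**
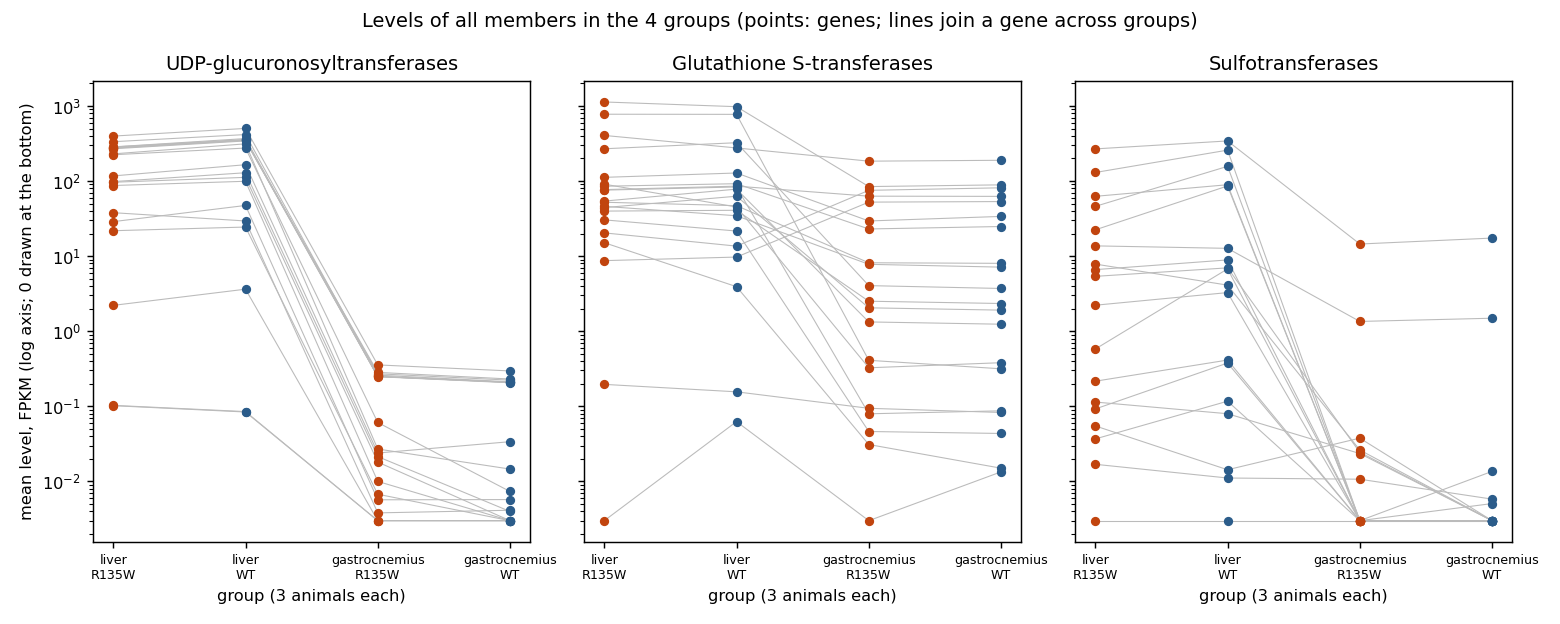
Mean FPKM of all 58 members in the 4 groups on a log axis, a panel per family, with each point a gene, grey lines joining a gene across groups and zeros drawn at the bottom. All glucuronosyltransferases fall below 1 FPKM in gastrocnemius, whereas glutathione transferases span both tissues.

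With each shared locus taken once, 36 of 40 members tested were higher in liver and 2 lower. By family, all 18 glucuronosyltransferases (11 with the Ugt1a locus taken once) and all 11 sulfotransferases tested were higher in liver. Of 18 glutathione transferases, 14 were higher in liver and 2 lower. The exceptions were in the Mu and Pi classes. Gstm5 had 8.99, 11 and 9.2 FPKM in WT liver against 52.3, 52.3 and 55.4 FPKM in WT muscle, a log2 difference of -2.44 (SE 0.10, adjusted p = 3.13e-11). Gstp2 had 16, 12.1 and 12.7 FPKM in WT liver against 83.2, 84 and 76.5 FPKM in WT muscle, a log2 difference of -2.56 (SE 0.16, adjusted p = 2.99e-09). Gstm2 and Gstp1 differed by under 2-fold, with log2 differences of 0.47 and 0.56. Gstp1, at 183, 199 and 169 FPKM in R135W muscle and 182, 195 and 188 FPKM in WT muscle, was the member with the highest level in muscle. Gstm1 followed, at 84.6, 78.4 and 90.3 FPKM in R135W muscle and 79.9, 94.3 and 92.8 FPKM in WT muscle.

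In liver the most abundant members per length were the Mu-class Gstm1, the Alpha-class Gsta3, which in mice detoxifies aflatoxin epoxide, and the Ugt1a locus. Gstm1 stood at 1120, 882 and 1370 FPKM in R135W animals 5, 7 and 12, against 943, 1160 and 830 FPKM in WT animals 6, 8 and 9. Gsta3 stood at 854, 861 and 614 FPKM in R135W livers and 572, 860 and 887 FPKM in WT livers. Both pairs of groups overlapped, and the log2 fold changes were 0.20 (SE 0.20) for Gstm1 and 0.00 (SE 0.21) for Gsta3.

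In R135W liver the glucuronosyltransferases lay mostly below WT and the glutathione transferases on both sides, with few members past the test. Of 11 sulfotransferases tested, 9 were lower by sign, and WT animal 8 was the highest liver in 9. Their R135W and WT libraries did not overlap in only 1 lower and 1 higher gene. Among the 47 members tested, the edgeR fit of the 6 liver libraries called 2 lower in R135W liver at an adjusted p under 0.05, Ugt3a1 and Sult3a1, and 0 higher; over the 13935 genes tested, 0.524% were lower and 2.76% higher by that rule. DESeq2 called 6 members lower and 2 higher, and its own share over all genes is not given here. At an unadjusted p under 0.05, 7 members were higher and 17 lower, against 10.8% and 6.75% of all genes. In 24 members, 7 higher and 17 lower, the R135W and WT libraries did not overlap, which is 51.1% of the members against 23.7% of all genes. These counts hold the Ugt1a locus 8 times. With each shared locus taken once, 7 of 40 members lay apart higher and 10 of 40 lower, 42.5% in either direction. Over all 13935 genes tested, 1958 lay apart higher and 1344 lower. The median log2 fold change was -0.35 for glucuronosyltransferases, -0.02 for glutathione transferases and -0.52 for sulfotransferases, and -0.01 over all genes.

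**Figure D2:**
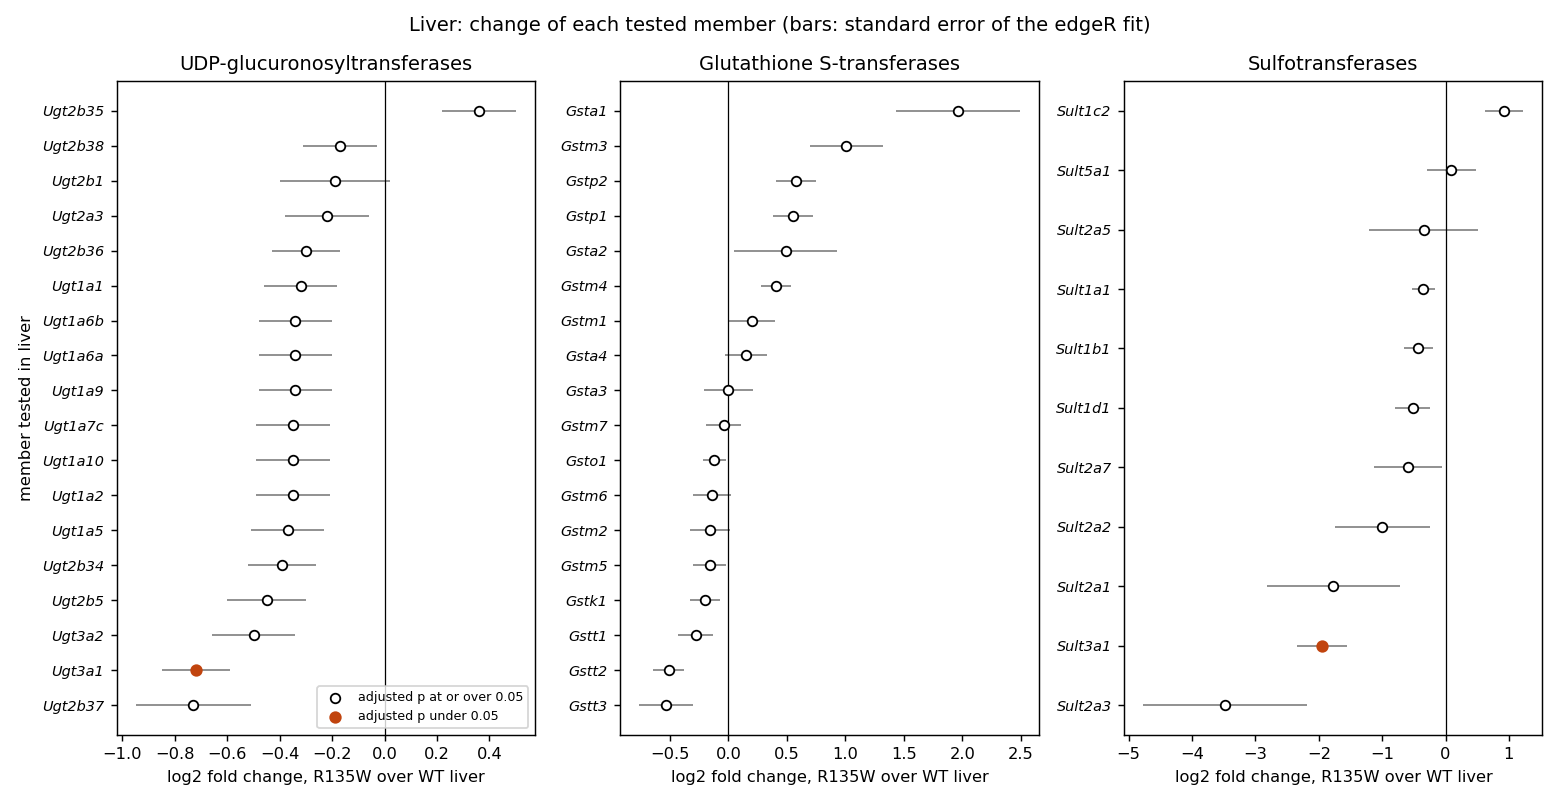
Log2 fold change of R135W over WT liver for the 47 members tested, a panel per family with its own horizontal scale; bars are standard errors and filled points passed an adjusted p of 0.05. All glucuronosyltransferases except Ugt2b35 lie left of 0, glutathione transferases spread to both sides, and Ugt3a1 and Sult3a1 are the filled points.

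Nearly all glucuronosyltransferases had modestly lower values in R135W than in WT liver. In edgeR 1 passed (Ugt3a1), while 0.524% of all genes were called lower. In DESeq2 4 passed (Ugt2b34, Ugt2b5, Ugt3a1 and Ugt3a2), and its share over all genes is not given here. Of 18 tested, 17 had a negative log2 fold change and 1 a positive one, and all changes lay between -0.73 and 0.36. At an unadjusted p under 0.05 in edgeR 14 of the 17 were lower, 8 of them Ugt1a genes, against 6.75% of all genes. With the Ugt1a locus taken once there were 11 measurements, of which 10 were negative. In 7 the R135W libraries lay all below the WT libraries, in 1 all above, and 3 overlapped. That is 72.7% apart in either direction, against 23.7% of all genes. Of all 13935 genes tested, 1344 lay apart lower and 1958 higher. Together the family took 0.338%, 0.335% and 0.325% of all counts in R135W livers and 0.381%, 0.412% and 0.385% in WT livers, and the groups did not overlap. Beside this stands the summed level of hepatocyte markers given above, which was also lower in R135W livers, although 0 of 15 passed the edgeR test and 2 had an unadjusted p under 0.05. Alb held the most counts of that list. Trf, Cyp3a11, Cps1 and Tat had positive log2 fold changes (0.23, 0.12, 0.11 and 0.11) and the other markers negative ones. As a percent of the summed counts of the 15 markers, the family had 2.91%, 3.02% and 2.6% in R135W livers and 2.95%, 3.25% and 3.14% in WT livers, and these ranges overlapped. The 12 pericentral hepatocyte markers summed to 5360 to 9230 CPM in R135W livers and 9900 to 12500 CPM in WT livers. Of these 1 was called higher and none lower, with a median log2 fold change of -0.25. The 10 periportal markers, Alb among them, summed to 60000 to 70300 CPM in R135W livers and 73400 to 78800 CPM in WT livers. None was called, and their median was 0.03. The part of either list in the result was not tested.

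**Figure D3:**
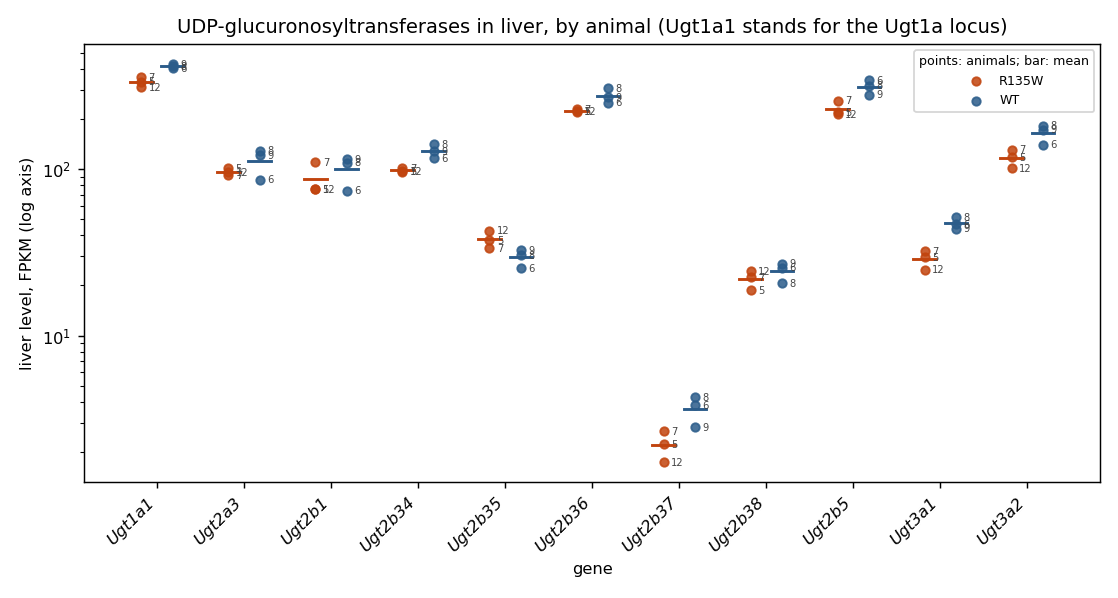
FPKM on a log axis of the glucuronosyltransferases tested in liver, with points for animals (numbered), bars for means, R135W left of WT, and Ugt1a1 standing for the Ugt1a locus. The R135W points lie below all WT points for Ugt1a1, Ugt2b34, Ugt2b36, Ugt2b37, Ugt2b5, Ugt3a1 and Ugt3a2, and above them for Ugt2b35.

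Ugt3a1 was the called member of this family. The UGT3A enzymes differ from the others in their sugar donor: in humans UGT3A1 uses UDP-N-acetylglucosamine. Ugt3a1 (chr15:9279829-9315036, plus strand, mm10) stood at 29.5, 32.1 and 24.8 FPKM in R135W livers, against 46.6, 51.5 and 43.9 FPKM in WT livers. All R135W values were below all WT values, with a log2 difference between genotypes of -0.72 (SE 0.13, adjusted p = 0.026, edgeR). The call was lost without any 1 of the 6 libraries, where adjusted p ran from 0.0533 to 0.0919, while the log2 fold change stayed between -0.82 and -0.62; it was also lost with age as a covariate (adjusted p = 0.0542). Its neighbour Ugt3a2 (chr15:9335598-9370870, plus strand) stood at 118, 131 and 101 FPKM in R135W livers and 140, 182 and 172 FPKM in WT livers, also apart, but did not pass (log2 fold change -0.50, SE 0.16, adjusted p = 0.143). None of the 100-base windows of Ugt3a1 or Ugt3a2 transcripts was found in another gene, so their counts were not exchangeable with a paralog at that length.

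The Ugt1a locus on chromosome 1 gave 1 measurement rather than 8. Its genes have first exons of their own and share 2316 exon bases (1312 for Ugt1a6b), and the authors' counting assigned a fragment to every gene it overlapped, so that the lowest of the 8 counts was 78.1% to 86.8% of the highest in each liver library. Ugt1a1, which conjugates bilirubin, stood at 334, 357 and 310 FPKM in R135W livers and 405, 416 and 428 FPKM in WT livers. Ugt1a6b, of the phenol-conjugating Ugt1a6 type, stood at 407, 431 and 352 FPKM in R135W livers against 502, 504 and 499 FPKM in WT livers. Ugt1a5 had 293, 313 and 250 FPKM in R135W livers against 363, 374 and 366 FPKM in WT livers, and Ugt1a7c had 277, 294 and 237 FPKM against 345, 344 and 339 FPKM. Every R135W value lay below every WT value in each of these genes, yet none passed: log2 fold changes ran from -0.37 to -0.32 over the 8 genes (SE 0.14, adjusted p = 0.229 to 0.267). The part of each count above the lowest of the 8 gives a rough reading of the first exons. For Ugt1a1 this excess was 167, 186 and 219 CPM in R135W livers and 172, 212 and 264 CPM in WT livers, which overlapped. For Ugt1a5 it was 27.1, 35.5 and 21.6 CPM against 30, 69.1 and 56.4 CPM in WT livers, which also overlapped. The excess of Ugt1a2, Ugt1a7c and Ugt1a10 was under 1 CPM in all 6 livers.

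The Ugt2b enzymes conjugate steroids and bile acids. Of 7 tested, 6 had a negative log2 fold change and 4 of these had groups apart, while 1344 of all 13935 genes tested lay apart lower. Within liver edgeR called none, and DESeq2 called Ugt2b34 and Ugt2b5 lower. The share of all genes called by DESeq2 is not given here. Ugt2b36 stood at 222, 229 and 221 FPKM in R135W livers and 250, 305 and 270 FPKM in WT livers (log2 fold change -0.30, SE 0.13, adjusted p = 0.278). Ugt2b5 stood at 219, 257 and 213 FPKM in R135W livers and 342, 316 and 280 FPKM in WT livers (log2 fold change -0.45, SE 0.15, adjusted p = 0.162). The least abundant of the 7, Ugt2b37, had 2.23, 2.67 and 1.73 FPKM in R135W livers against 3.82, 4.25 and 2.82 FPKM in WT livers (log2 fold change -0.73, SE 0.22, adjusted p = 0.14). Ugt2b34 had a log2 fold change of -0.39 (adjusted p = 0.157), and Ugt2b1, Ugt2b38 and the single tested Ugt2a gene, Ugt2a3, overlapped between genotypes with log2 fold changes of -0.19, -0.17 and -0.22. Ugt2b35 went the other way, with 37.5, 33.6 and 42.6 FPKM in R135W livers against 25.4, 30.4 and 32.5 FPKM in WT livers. Its groups did not overlap either, and its log2 fold change of 0.36 did not pass (SE 0.14, adjusted p = 0.215). Ugt2b5 and Ugt2b38 share 24.7% and 24.2% of their 100-base windows with other genes, mainly each other, so the split of fragments between them rests on the aligner. Ugt2a1 and Ugt2a2 had identical counts of at most 10 and were not tested.

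Promoters from RefSeq (GRCm38.p6, the mm10 assembly; 250 bases before to 50 after a gene's start) were found for 50 of the 58 members. The sequences below are the 60 bases before the annotated start, read 5′ to 3′ in the direction of the gene, of the 4 Ugt2b genes that hold the nuclear receptor half-site AGGTCA within 60 bases of the start; they are shown because these neighbouring genes sit in 1 cluster, share the stretch around that half-site and all had negative log2 fold changes in liver. Capitals mark AGGTCA.
Ugt2b36 (chr5:87092556-87092615, minus strand): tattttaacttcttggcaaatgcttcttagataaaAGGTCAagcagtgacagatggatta
Ugt2b37 (chr5:87254789-87254848, minus strand): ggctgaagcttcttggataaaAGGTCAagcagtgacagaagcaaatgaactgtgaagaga
Ugt2b38 (chr5:87424204-87424263, minus strand): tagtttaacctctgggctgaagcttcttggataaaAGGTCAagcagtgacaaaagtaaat
Ugt2b5 (chr5:87140341-87140400, minus strand): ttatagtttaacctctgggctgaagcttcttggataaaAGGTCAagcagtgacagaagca

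The half-site lies 25 to 20, 39 to 34, 25 to 20 and 22 to 17 bases before the start in Ugt2b36, Ugt2b37, Ugt2b38 and Ugt2b5, always on the gene's own strand. In Ugt2b35, the member that stood higher, it lies at 215 to 210 bases. The windows of Ugt2b34, which lay apart lower, and Ugt2b1 hold no AGGTCA, and Ugt2b38, which holds it, overlapped between genotypes. On either strand AGGTCA was present in 7 of 18 glucuronosyltransferase promoters (38.9%), 1 of 18 glutathione transferase promoters (5.56%) and 2 of 14 sulfotransferase promoters (14.3%), against 16% of 27025 promoters. A further 3 short motifs were searched on both strands. The antioxidant response element core TGACNNNGC was in 2 of 50 member promoters (4.0%, against 12.5% of all), in Gsta3 and Gstm5. The xenobiotic response element core GCGTG was in 8 (16%, against 32.5%), and in Gstm5 a copy overlaps the TGACNNNGC match. The STAT core TTCNNNGAA was in 3 (6.0%, against 8.47%), namely Sult3a1, Gsta1 and Ugt1a6a. A match is a string in this window and not a measured binding site.

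Sulfotransferases were lower in 9 of the 11 tested by sign, with Sult3a1 called by edgeR and most Sult2a genes spread widely between animals. Sult3a1, which in mice sulfates amines and is known as a female-predominant liver gene, stood at 33.2, 24.7 and 9.3 FPKM in R135W livers and 69.7, 107 and 81.2 FPKM in WT livers. The highest R135W value was below the lowest WT value, with a 3.85-fold lower level in R135W (log2 fold change -1.95, SE 0.39, adjusted p = 0.0349). The log2 fold change lay between -2.34 and -1.57 whichever library was left out; the call was kept without R135W animal 5 (adjusted p = 0.0263) and animal 12 (0.019), and lost without R135W animal 7 (0.0958), WT 6 (0.0536), WT 8 (0.124) and WT 9 (0.112). It was also lost with age as a covariate (adjusted p = 0.0635). The promoters of the pair of called genes are shown in full; capitals mark the TTCNNNGAA match, which lies 109 to 101 bases before the Sult3a1 start, and the Ugt3a1 window holds none of the 4 motifs.
Sult3a1 (chr10:33857472-33857771, plus strand): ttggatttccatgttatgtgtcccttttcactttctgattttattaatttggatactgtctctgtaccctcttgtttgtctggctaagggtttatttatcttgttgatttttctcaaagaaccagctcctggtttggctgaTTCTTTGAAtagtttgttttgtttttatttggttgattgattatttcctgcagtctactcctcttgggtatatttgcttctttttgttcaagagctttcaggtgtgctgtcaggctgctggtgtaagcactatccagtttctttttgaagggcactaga
Ugt3a1 (chr15:9279579-9279878, plus strand): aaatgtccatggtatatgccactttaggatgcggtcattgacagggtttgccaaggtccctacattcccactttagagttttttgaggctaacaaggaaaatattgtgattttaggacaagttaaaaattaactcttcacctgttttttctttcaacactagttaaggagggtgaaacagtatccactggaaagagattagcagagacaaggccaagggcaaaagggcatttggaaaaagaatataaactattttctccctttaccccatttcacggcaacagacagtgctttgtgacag

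The Sult2a genes sulfate bile acids and hydroxysteroids and are female-biased in mouse liver. Their levels spread over more than the genotype difference. Sult2a1 stood at 67.2, 2.52 and 68.1 FPKM in R135W livers and 69.7, 362 and 38.9 FPKM in WT livers. Sult2a2 stood at 186, 24.5 and 178 FPKM in R135W livers and 163, 517 and 94.9 FPKM in WT livers. Sult2a3 stood at 1.3, 0.0546 and 0.386 FPKM in R135W livers and 1.83, 18.1 and 0.322 FPKM in WT livers. In all 3 genes WT animal 8 was the highest and R135W animal 7 the lowest, while the other 4 livers overlapped between genotypes for Sult2a1 and Sult2a3. For Sult2a2 both remaining R135W livers stood above both remaining WT livers, opposite to the sign of its log2 fold change. The log2 fold changes were -1.77 (SE 1.05) for Sult2a1, -1.0 (SE 0.75) for Sult2a2 and -3.48 (SE 1.29) for Sult2a3, with adjusted p of 0.425, 0.539 and 0.21. Without WT animal 8 they became -0.26, -0.01 and -0.84. Sult2a5 and Sult2a7, the other tested genes of the group, had log2 fold changes of -0.34 (SE 0.86) and -0.59 (SE 0.54), while Sult2a4 and Sult2a6 stayed under 1 FPKM in every liver. Sult2a2 shares 34.6% of its 100-base windows with Sult2a5, Sult2a1 and Sult2a4.

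**Figure D4:**
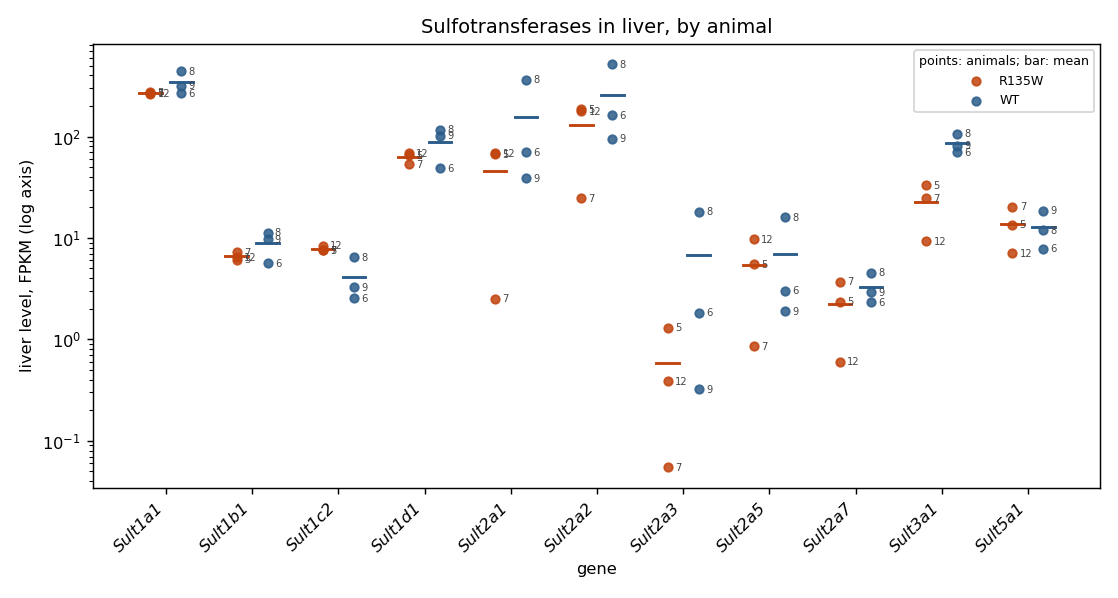
FPKM on a log axis of the 11 sulfotransferases tested in liver, with points for animals (numbered), bars for means and R135W left of WT. Sult3a1 is lower in all R135W animals, Sult1c2 is higher in all of them, and Sult2a1, Sult2a2, Sult2a3 and Sult2a5 are lowest in R135W animal 7 and highest in WT animal 8.

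The remaining sulfotransferases had smaller spreads. Sult1a1, which acts on simple phenols and was the family's most abundant member, stood at 273, 265 and 267 FPKM in R135W livers against 267, 440 and 318 FPKM in WT livers, a log2 difference between genotypes of -0.35 (SE 0.18, adjusted p = 0.364). Sult1b1, known for thyroid hormones, and Sult1d1, which acts on catecholamines, had log2 fold changes of -0.43 and -0.52 and overlapped between genotypes. Sult1c2 was the member with R135W libraries all above WT: 7.54, 7.61 and 8.37 FPKM in R135W livers against 2.56, 6.49 and 3.29 FPKM in WT livers (log2 fold change 0.93, SE 0.30, adjusted p = 0.148). It passed without WT animal 8, with a log2 fold change of 1.41 and an adjusted p of 0.0297. Sult5a1 overlapped, at 13.5, 20.4 and 7.12 FPKM in R135W livers and 7.82, 11.9 and 18.5 FPKM in WT livers (log2 fold change 0.09, SE 0.39). The oestrogen sulfotransferase Sult1e1, the cholesterol sulfotransferase Sult2b1, Sult4a1 and Sult6b1 stayed under 1 FPKM in every liver, and Sult1c1 was at 0. WT animal 8 had the highest level in 9 of the 11 tested genes. The family's share of all counts was 0.0899%, 0.0592% and 0.0862% in R135W livers and 0.0809%, 0.182% and 0.0902% in WT livers. As a percent of the counts of hepatocyte markers it had 0.775%, 0.533% and 0.691% in R135W livers. In WT livers this was 0.625%, 1.44% and 0.734%, and the ranges overlapped.

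Other genes known to be female-biased in mouse liver varied between the same animals. A list of 16 such genes from outside the members summed to 3460, 2590 and 2800 CPM in R135W livers 5, 7 and 12 and to 3570, 11600 and 4140 CPM in WT livers 6, 8 and 9. Cyp3a41a, a member of that list, had 182, 59.2 and 9.89 FPKM in R135W livers and 58.3, 902 and 136 FPKM in WT livers. Over the 16, the median log2 fold change was -0.97 and 2 were called lower, Cyp17a1 (-2.54, SE 0.53, adjusted p = 0.0395) and Acot3 (-1.40, SE 0.24, adjusted p = 0.0217). At an unadjusted p under 0.05 in edgeR 7 were lower, against 6.75% of all genes. By that rule 1 was higher, Prom1 (log2 fold change 1.40, SE 0.61), against 10.8% of all genes. Of 12 male-biased genes 0 were called by edgeR, 1 had an unadjusted p under 0.05, and the median was 0.12. The part of these genes' variation in the sulfotransferase values was not tested.

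Glutathione transferases showed both directions in liver. Of 18 tested, 9 had a positive and 9 a negative log2 fold change, from -0.53 to 1.96. In the edgeR fit of the 6 liver libraries 0 passed the adjusted threshold. At an unadjusted p under 0.05 in that fit 5 were higher and 1 lower, against 10.8% and 6.75% of all genes. DESeq2 called Gstm3 higher and Gstt2 lower, and the edgeR fit of all 12 libraries called Gsta1, Gstm3, Gstm4, Gstp1 and Gstp2 higher. The shares of all genes called by DESeq2 and by that fit are not given here. The 5 higher genes were of the Alpha, Mu and Pi classes and the lower one of the Theta class. All 3 tested Theta genes had negative values and both Pi genes had positive ones.

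**Figure D5:**
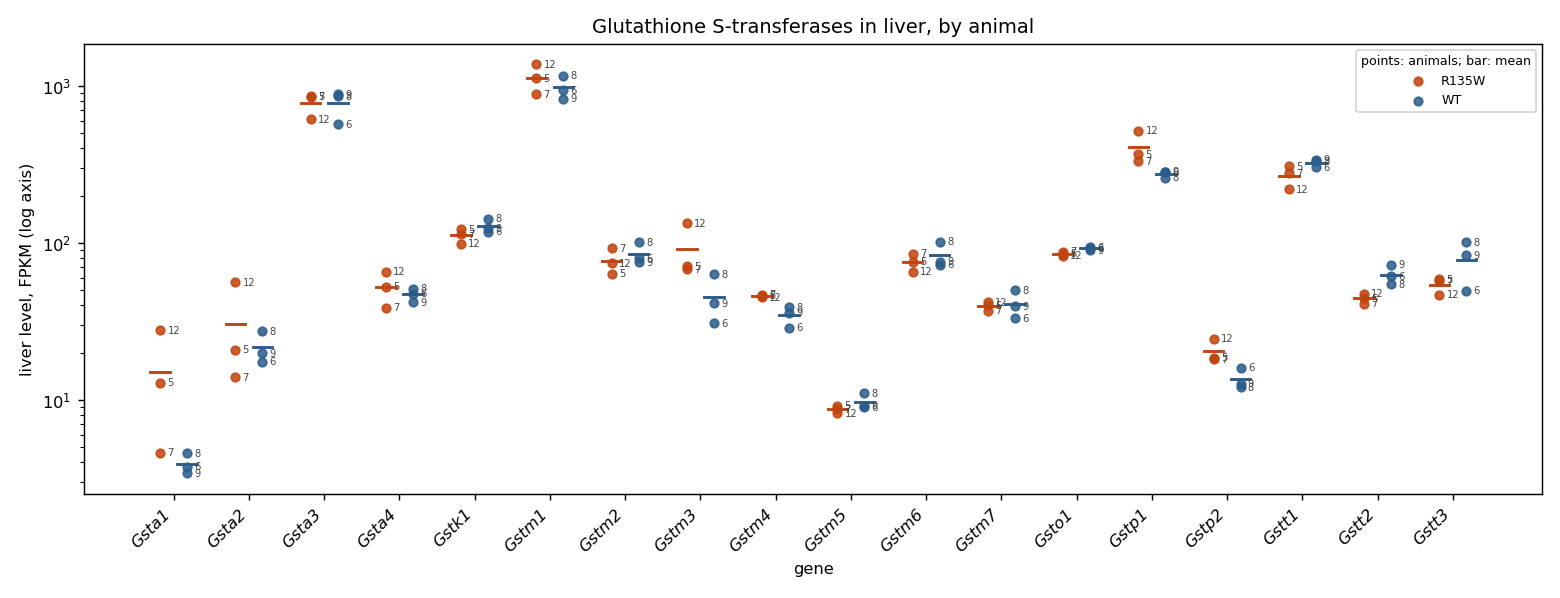
FPKM on a log axis of the 18 glutathione transferases tested in liver, with points for animals (numbered), bars for means and R135W left of WT. R135W points lie above all WT points for Gsta1, Gstm3, Gstm4, Gstp1 and Gstp2 and below them for Gsto1 and Gstt2, and animal 12 is the top point for Gsta1, Gsta2, Gstm3, Gstp1 and Gstp2.

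Gsta1, an Alpha-class enzyme that reduces lipid peroxides and is inducible in mouse liver, had the largest positive log2 fold change among the members tested. It stood at 12.9, 4.62 and 27.9 FPKM in R135W livers 5, 7 and 12, against 3.76, 4.59 and 3.4 FPKM in WT livers. R135W animal 7 was level with WT animal 8, so the groups lay apart by less than 0.1 FPKM. The log2 fold change was 1.96 (SE 0.53, adjusted p = 0.0969); without animal 12 it was 1.17 (adjusted p = 0.178) and without animal 7 it was 2.37 (adjusted p = 0.0264). Gsta1 shares 80.6% of its 100-base windows with Gm3776, Gsta2 and Gm10639, so that its level depends on the placing of shared fragments. Gsta2 had 20.9, 13.9 and 56.4 FPKM in R135W livers against 17.5, 27.4 and 19.9 FPKM in WT livers, and Gsta4, which acts on 4-hydroxynonenal, had 52.6, 38.7 and 65.4 FPKM against 47.5, 51.2 and 42.1 FPKM. Both overlapped between genotypes, and animal 12 was the highest in each.

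The Pi-class genes, known as male-biased in mouse liver, were higher in all R135W livers. Gstp1 stood at 367, 330 and 519 FPKM in R135W livers and 283, 260 and 284 FPKM in WT livers (log2 fold change 0.55, SE 0.17, adjusted p = 0.151). Gstp2 stood at 18.6, 18.1 and 24.5 FPKM in R135W livers and 16, 12.1 and 12.7 FPKM in WT livers (log2 fold change 0.58, SE 0.17, adjusted p = 0.123). Neither passed, and the values without animal 12 were 0.34 and 0.43. The pair share sequence, 46.9% of the windows of Gstp2 being found elsewhere. In the Mu class Gstm3 had 71.1, 68 and 134 FPKM in R135W livers against 30.8, 63.3 and 41.2 FPKM in WT livers (log2 fold change 1.01, SE 0.31, adjusted p = 0.143). Gstm4 had 46.2, 46.7 and 45.1 FPKM against 28.8, 38.8 and 36 FPKM (log2 fold change 0.41, SE 0.13, adjusted p = 0.143). The other 5 Mu genes had log2 fold changes of -0.16 to 0.20 and overlapped.

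The Theta-class Gstt2 stood at 44.5, 41 and 47.5 FPKM in R135W livers and 61.3, 54.4 and 72.7 FPKM in WT livers. The groups were apart, and the log2 fold change of -0.51 (SE 0.13) had an adjusted p of 0.086. Gstt1 and Gstt3 overlapped between genotypes with log2 fold changes of -0.28 and -0.53. Gstk1, the peroxisomal and mitochondrial Kappa-class enzyme, had 122, 114 and 99 FPKM in R135W livers against 118, 143 and 124 FPKM in WT livers (log2 fold change -0.20, SE 0.13). Gsto1, which reduces dehydroascorbate, had 85.4, 87.8 and 82.7 FPKM in R135W livers against 93.7, 92.6 and 90.2 FPKM in WT livers; the groups were apart, but the log2 fold change of -0.12 had an unadjusted p of 0.284. Gsto2 and Gstt4 stayed under 1 FPKM in every liver and were not tested. The family took 0.465%, 0.388% and 0.471% of counts in R135W livers and 0.354%, 0.44% and 0.38% in WT livers, which overlapped. As a percent of the counts of hepatocyte markers it had 4.01%, 3.49% and 3.77% in R135W livers and 2.74%, 3.47% and 3.1% in WT livers. The lowest R135W value was just above the highest WT value, and the summed CPM of these markers was itself lower in R135W livers.

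The R135W liver of animal 12 was at an extreme more often than the other R135W livers. Among 40 tested members with shared loci taken once, it had the highest level of the 6 livers in 9 and the lowest in 16, while animal 5 was highest in 0 and lowest in 2 and animal 7 was highest in 2 and lowest in 8. In WT, animal 8 was highest in 21 and lowest in 2, animal 6 highest in 2 and lowest in 10, and animal 9 highest in 6 and lowest in 2. By family, animal 12 was lowest in 7 of 11 glucuronosyltransferase measurements and highest in 7 of 18 glutathione transferases. Its library was also the deepest in liver, with 30460237 counts, and its age lay between those of the other R135W animals.

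Genes that supply the donors, move the conjugates or regulate these families mostly did not pass in liver. Called were 0 of 5 genes of UDP-glucuronate supply, 0 of 13 of glutathione synthesis and turnover and 0 of 8 of sulfate donor supply, and none of these 26 had an unadjusted p under 0.05 in the edgeR test. Among 9 other genes of the glutathione transferase families and their relatives by fold, which include chloride intracellular channel genes and an elongation factor subunit, Hpgds, the haematopoietic prostaglandin D synthase, was called higher, with 0.776, 0.781 and 0.96 FPKM in R135W livers against 0.337, 0.31 and 0.3 FPKM in WT livers (log2 fold change 1.41, SE 0.22, adjusted p = 0.0164). The macrophage markers given above moved with it, and their part was not tested. Among 13 conjugate transporters, the efflux pump gene Abcc1 was called higher at a low level, 0.731, 0.655 and 0.853 FPKM in R135W livers against 0.406, 0.419 and 0.42 FPKM in WT livers (log2 fold change 0.84, SE 0.18, adjusted p = 0.0414). Of 18 other conjugation enzymes and 11 deconjugating enzymes 0 were called, with 4 lower in the first list, and 3 lower and 1 higher in the second, at an unadjusted p under 0.05 in edgeR.

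Of 22 regulators known to act on these families, mostly transcription factors with some cofactors and a hormone receptor, Ppara, the fatty acid receptor, was called lower. It stood at 24.6, 29.5 and 29.2 FPKM in R135W livers and 38.9, 42.8 and 48.5 FPKM in WT livers, with no overlap (log2 fold change -0.65, SE 0.14, adjusted p = 0.0437). Nr1i3, the constitutive androstane receptor, which regulates Ugt1a1 and many other conjugation genes, stood at 183, 180 and 104 FPKM in R135W livers and 276, 282 and 311 FPKM in WT livers. Its groups were apart as well, but its log2 fold change of -0.90 just missed the threshold (SE 0.22, adjusted p = 0.064). Nfe2l2, the gene of the antioxidant response factor NRF2, overlapped, with a log2 difference between genotypes of -0.08 (SE 0.18), and Ahr, the aryl hydrocarbon receptor, had 0.26 (SE 0.15). Nr1i3, Nfe2l2 and Ahr were named after their values were seen. Over the 22 regulators the median log2 fold change was -0.08. At an unadjusted p under 0.05 in edgeR 4 were lower (Ppara, Nr1i3, Nr1h4 and Ghr) and 0 higher, against 6.75% and 10.8% of all genes.

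In gastrocnemius 24 members were tested and 0 were called in either direction by edgeR, by DESeq2 or without any 1 library; over the 13826 genes tested, 0.542% were higher and 0.333% lower in R135W muscle. At an unadjusted p under 0.05, 0 members were higher and 1 was lower, against 6.63% and 4.91% of all genes, and the libraries of 1 member did not overlap, 4.17% of the members against 16.2% of all genes. That member was Sult1a1, at 11.7, 16.2 and 15.6 FPKM in R135W muscle and 16.9, 17.9 and 17.4 FPKM in WT muscle (log2 fold change -0.27, SE 0.11, adjusted p = 0.376). The Kappa-class Gstk1 had 32.3, 26.8 and 29.1 FPKM in R135W muscle and 29.8, 36.3 and 35.3 FPKM in WT muscle (log2 fold change -0.21, SE 0.10, adjusted p = 0.465). Gsto1 had 21.1, 22.3 and 25.7 FPKM in R135W muscle and 24.6, 23.6 and 26.4 FPKM in WT muscle. Sult5a1 had 1.02, 1.38 and 1.65 FPKM in R135W muscle and 1.58, 1.29 and 1.6 FPKM in WT muscle. Both overlapped.

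The glutathione transferases of muscle were close between genotypes. Over 14 tested genes the median log2 fold change was 0.01, with a range of -0.21 to 0.39, and the log2 fold changes of Gstp1, Gstm1 and Gstm5 were -0.04 (SE 0.07), -0.08 (SE 0.08) and -0.03 (SE 0.06). The value at the top of the range belonged to Gsta3, at 0.183, 0.165 and 0.881 FPKM in R135W muscle and 0.336, 0.204 and 0.408 FPKM in WT muscle. Its highest value was in the library of animal 12 that held liver transcripts, and without that library the log2 fold change turned to -0.83. The 8 Ugt1a genes, again a single measurement, stood at 0.234 to 0.386 FPKM in R135W muscle and 0.167 to 0.397 FPKM in WT muscle, with log2 fold changes of 0.25 to 0.29 that did not pass. The other 12 glucuronosyltransferases and 16 of the 18 sulfotransferases were too low to test there. From the pathway lists, Inmt, an amine N-methyltransferase, was called lower in R135W muscle (log2 fold change -1.06, SE 0.19, adjusted p = 0.0422), with 6.01, 4.27 and 5.7 FPKM against 8.53, 14 and 10.7 FPKM in WT muscle.

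No member was called for a difference between tissues in the R135W effect: 0 of 47 were higher and 0 lower, against 0.0973% and 0.0324% of 15414 genes, and 2 were higher and 11 lower at an unadjusted p under 0.05 in edgeR, against 5.36% and 4.59% of all genes. With the Ugt1a locus taken once, the 11 lower become 4. Among them Ugt2b36 (log2 difference -3.08) had 8 counts in the muscle library of R135W animal 12, which held liver transcripts, and 0 or 1 in the other muscles. Without that library the median difference over 11 glucuronosyltransferase loci moved from -1.35 to -0.19. The smallest p-values belonged to Gstp2 and Gstp1, whose liver effects exceeded their muscle effects by log2 0.70 (SE 0.21, adjusted p = 0.268) and 0.59 (SE 0.20, adjusted p = 0.348). For the Ugt1a genes the difference was -0.64 to -0.59 (adjusted p = 0.377 to 0.482). For the members at or near 0 counts in muscle, Ugt3a1 and Sult3a1 among them, the muscle effect could not be measured at this depth, and the liver effect is not shown to be particular to liver.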

How the data were processed

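Poly(A) RNA-seq of 12 libraries was used in full. Per the file headers, the deposited values are raw counts: the authors counted read pairs over the exons of each UCSC mm10 gene symbol with featureCounts 1.5.2, unstranded, primary alignments only, a fragment being counted for every gene it overlapped. Per the submitters' processing notes, the aligner was STAR 2.4.0. No normalisation had been applied, and replicates were not pooled.

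From these counts, genotype was tested within each tissue (R 4.3.3, edgeR 4.0.16: TMM, filterByExpr, quasi-likelihood F test, Benjamini-Hochberg over all tested genes, threshold 0.05). Tissue and interaction contrasts used all 12 libraries in 4 groups; tissue calls also needed a 2-fold difference. SE is the log2 fold change over the square root of F. FPKM used the file's exon lengths. A member lay apart when the 3 R135W and 3 WT libraries did not overlap. Depth was 20751583 to 30460237 counts per library. The genotype tests within each tissue, and the liver genotype contrast in the fit of 12 libraries, were checked on simulated data. The tissue and interaction contrasts were not. Shared sequence was sought as identical 100-base windows in GENCODE vM21 transcripts. The members' symbols, the gene lists and the tests were chosen with earlier results of these data known. Family counts as a percent of hepatocyte marker counts were added after the levels were seen.

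Named in every sample were called members, in each family the 3 with the smallest p in liver and 2 in gastrocnemius, and the 3 and 2 of highest level; others shown in full were chosen after their values were seen. Livers and muscles of an animal are paired by the animal number in the labels; deviations from group means correlated at 0.00317 to 0.0692 within animals and -0.0549 to 0.0372 between animals. The labels name separate animals but no batch or litter. Alternatives were RLE factors, DESeq2 1.42.0, no and stricter filters, age as a covariate, the fit of 12 libraries, an animal block, and leaving out each library.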

Additional observations from a re-analysis of the deposited data

How the results depend on the processing

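The liver counts of 0 members higher and 2 lower (Ugt3a1 and Sult3a1) were the same with RLE factors, without a filter and with a stricter filter. DESeq2 called 2 higher (Gstm3, Sult1c2) and 6 lower (Gstt2, Sult3a1, Ugt2b34, Ugt2b5, Ugt3a1, Ugt3a2). The fit of 12 libraries called 5 higher (Gsta1, Gstm3, Gstm4, Gstp1, Gstp2) and the same 2 lower. The shares of all genes called by DESeq2 and by this fit are not given here. Age as a covariate left 0 lower, with adjusted p of 0.0542 for Ugt3a1 and 0.0635 for Sult3a1. Leaving out 1 library gave 0 to 1 higher and 0 to 2 lower; the 2 lower without WT 6 were Gstt3 and Sult1d1. Fewer libraries lower the power; the other causes were not tested. Of 11 glucuronosyltransferase loci, 10 were negative under every alternative, or 10 of 13 without a filter.

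Signs turned for members near 0 change when libraries were left out: Sult5a1 from -0.33 to 0.46 in liver, and in gastrocnemius Sult5a1 from -0.30 to 0.02, Gstt2 from -0.06 to 0.28, Gstp2 from -0.23 to 0.01, Gstp1 from -0.10 to 0.03 and Gsta3 from -0.83 to 0.78 (log2); of these alternatives, R135W 7 and WT 6 in liver (-0.33 and -0.17 for Sult5a1), and R135W 5, R135W 12 and WT 6 in gastrocnemius (the last -0.01 for Gstt2) turned the sign. Counts in gastrocnemius stayed at 0. With the animal as a replicate block, the interaction gave 0 calls in either direction and the tissue contrast 43 higher and 2 lower, as without it; over all alternatives the tissue contrast gave 42 to 48 higher and 2 lower. Depth limits the muscle values: 33 members had at most 10 counts per library there.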
